A study of Homo sapiens with 9 samples.

Results

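Translation factors carry the ribosome through protein synthesis. Described here are 44 genes for initiation and elongation factors, chosen by symbol from the known subunits of eIF2, eIF2B, eIF3 and eIF4F, the factors that select the start codon and join the ribosomal subunits, and the cytosolic elongation factors. They are 44 of the 27902 genes that have an entry in the deposited tables. The samples were 9 RNA-seq libraries of DU145 cells, an established human prostate cancer line. Control cells expressed a scrambled shRNA (scramble, 3 libraries), the knockdown cells expressed *FZD6* shRNA1 (3 libraries) or *FZD6* shRNA2 (3 libraries), and the genotype of all 9 is given as WT. *FZD6* encodes a frizzled receptor for Wnt ligands. All 3 groups are the same cell line and all express a hairpin, and the sources used here give neither the time the hairpins were expressed nor whether the libraries of a group came from separate cultures. The p-values therefore measure the spread between these libraries, which may be technical.

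In initiation, eIF2 bound to GTP brings the initiator tRNA to the small ribosomal subunit, and eIF2B recharges eIF2 with GTP. eIF3 is a large scaffold on the small subunit, and eIF4F, made of the cap-binding protein eIF4E, the scaffold eIF4G and the RNA helicase eIF4A, brings the mRNA to it. In elongation, eEF1A delivers aminoacyl-tRNA, the eEF1B subunits recharge eEF1A, and eEF2 moves the ribosome along the mRNA. Growth signals through mTORC1 control this machinery through the binding of eIF4E by the 4E-BP proteins and through the translation of mRNAs that begin with a pyrimidine tract.

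Values are FPKM, in which the fragments of a transcript are scaled by its length and by the depth of the library, summed over the RefSeq entries of a gene. Since FPKM are per length, levels of different genes can be set side by side. They are shares of the RNA of a bulk sample, in which fewer cells that express a gene and less RNA per cell cannot be told apart. Tests are by limma on log2(FPKM + 1) of the 12509 genes whose mean reached 1 FPKM, with Benjamini-Hochberg adjustment over all of them, and a gene is said to rise or fall at an adjusted p under 0.05. Of the 44 members 43 were tested. *EIF2S2* was left out because an entry of it was not marked as usable by Cufflinks, the program that made the FPKM.

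*FZD6* itself, on chromosome 8 from 103298494 to 103332866, was measured at 20.9, 20.5 and 20.04 FPKM in scramble, at 9.47, 10.2 and 9.80 FPKM with shRNA1, and at 7.84, 8.79 and 7.69 FPKM with shRNA2. All 6 knockdown libraries lay below all scramble libraries (two-sided exact permutation p = 0.0119, the smallest that 84 arrangements allow). The epithelial keratins *KRT8*, *KRT18* and *KRT19* were high, at 202.5 to 237.7, 260.3 to 296.5 and 151.5 to 176.2 FPKM. *EPCAM* was at 17.3 to 18.2 FPKM in scramble, 18.8 to 21.4 with shRNA1 and 21.4 to 23.4 with shRNA2. *CDH1* was low, at 4.46 to 5.02, 3.83 to 3.97 and 3.38 to 3.57 FPKM. Without overlap with scramble, *KRT19* was higher with each hairpin, *KRT18* higher with shRNA1 and *KRT8* lower with shRNA2. *PTPRC* and *CD3E* were at 0 in every library. Of the listed neuroendocrine, fibroblast, leukocyte and endothelial markers, only *CD68* and *CD14* reached 1 FPKM in a library. *CD68* was at 16.9 to 18.1 FPKM in scramble, 21.3 to 23.0 with shRNA1 and 25.05 to 25.7 with shRNA2, and *CD14* at 1.01 to 1.204, 0.653 to 0.877 and 0.888 to 1.08 FPKM. *CD68*, *CD14*, *EPCAM*, *CDH1*, *KRT18*, *KRT19* and *KRT8* thus differed between groups, and their part in the results was not tested. The depth, estimated from the Cufflinks confidence bounds of genes with a single transcript, was 31.8 to 39.8 M fragments per library. The library shRNA2 replicate 2 lay farthest from the others of its group. Its median distance over all tested genes was 0.0972 on the log2 scale, against 0.0386 to 0.0688 for the other 8 libraries, and without it some calls below change, as given there.

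The levels of the members in scramble spanned 337-fold, from *EEF2K* at 3.92 ± 0.0564 FPKM (SD, n = 3) to *EEF2* at 1321 ± 10.1 FPKM. The elongation factors held the top of the order. *EEF2* was followed by *EEF1A1* at 1243 ± 14.6, *EEF1G* at 967 ± 24.2 and *EIF5A* at 744 ± 24.4 FPKM, and these 4 did not overlap in scramble. The helicase gene *EIF4A1* was the highest of the initiation factors at 438 ± 3.93 FPKM. At the other end the cap-binding gene *EIF4E* was listed at 4.46 ± 0.145 FPKM and the eIF2B subunit gene *EIF2B3* at 5.35 ± 0.251 FPKM. The summed FPKM of all 44 members was 8740.6 ± 88.9 in scramble, 9385 ± 46.9 with shRNA1 and 9465 ± 74.5 with shRNA2 (SD, n = 3). As a share of all FPKM it was 1.175%, 1.169% and 1.144% in scramble and 1.252%, 1.213% and 1.206% with shRNA1. With shRNA2 the share was 1.159%, 1.278% and 1.175%, which overlapped scramble. The total of all FPKM also differed, at 742217 to 773024 in scramble and 818166, 739099 and 816259 with shRNA2.

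**Figure D1:**
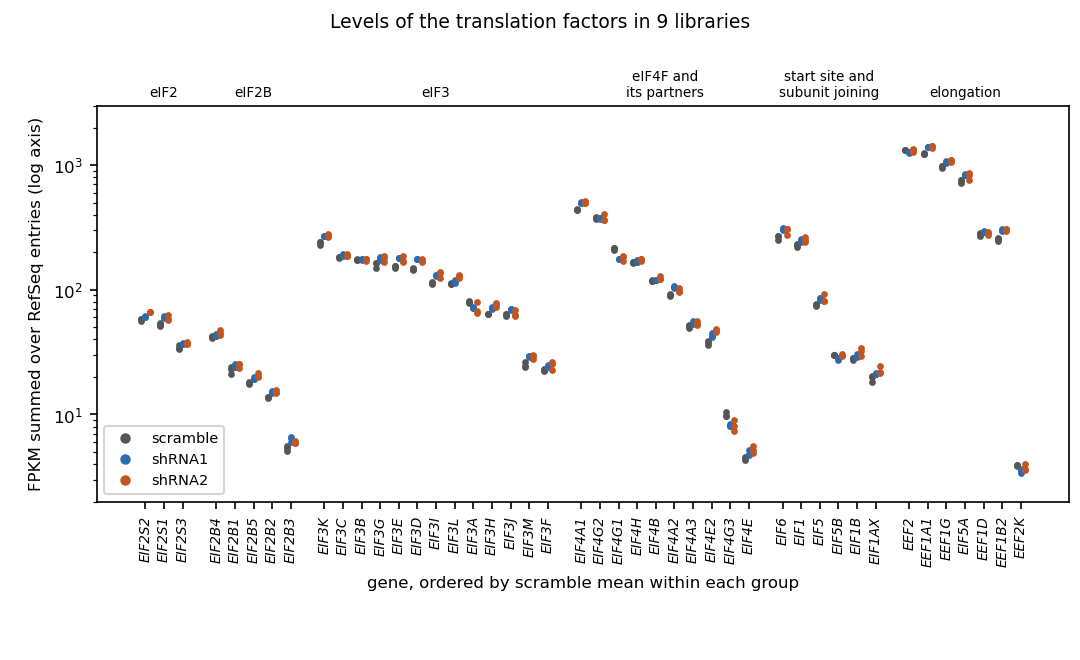
FPKM of each of the 44 members (log axis) in each of the 9 libraries, by group of members and coloured by scramble, shRNA1 and shRNA2. Levels run from about 3.92 FPKM for *EEF2K* to 1321 FPKM for *EEF2* in scramble, and the differences between the 3 colours are small beside the differences between genes.

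Because many mRNAs of the translation machinery begin with a pyrimidine tract, the annotated starts of the members were read from RefSeq (GRCh38.p14). The window runs from 10 bases before the annotated start through its first 20 bases, 5′ to 3′. Capitals mark the run of C and T from the start on, shown where the first base is C and at least 4 bases of C or T follow, and a window in lower case holds no such run. The first 4 below carry it, and the last 3, without it, are a factor that fell, the most abundant initiation factor and an abundant elongation factor.

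EEF1A1, chr6:73521013-73521042, minus strand: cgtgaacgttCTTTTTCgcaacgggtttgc
EEF2, chr19:3985444-3985473, minus strand: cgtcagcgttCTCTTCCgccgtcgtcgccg
EEF1B2, chr2:206159885-206159914, plus strand: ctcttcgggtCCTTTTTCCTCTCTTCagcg
EIF3D, chr22:36529147-36529176, minus strand: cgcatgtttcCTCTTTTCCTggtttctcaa
EIF4G1, chr3:184314596-184314625, plus strand: gcggggagccggaaatggttgtggactacg
EIF4A1, chr17:7572815-7572844, plus strand: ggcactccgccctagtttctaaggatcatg
EEF1G, chr11:62573872-62573901, minus strand: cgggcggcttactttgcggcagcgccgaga

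Of the 44 members 37 had a start in the RefSeq table, and 10 of these had such a tract at 1 or more of their starts. They are *EIF2S3*, *EIF3D*, *EIF3F*, *EIF3K*, *EIF3M*, *EIF4A2*, *EIF4B*, *EEF1A1*, *EEF1B2* and *EEF2*. Over all RefSeq starts, 5.14% of 27305 genes and 4.07% of 35116 starts had one. The search read only the sense strand at the annotated start, which can differ from the start used in these cells, and *EEF1B2* and *EIF4G1* have further annotated starts whose windows hold no tract. *EIF2S2*, *EIF3A*, *EIF3E*, *EIF3G*, *EIF3H*, *EIF3L* and *EEF1D* had no entry.

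With *FZD6* knockdown most translation factors were measured slightly higher. In the 6 knockdown libraries against the 3 of scramble, 22 of the 43 tested members rose, 2 fell and 19 did not pass the test (limma). The share called was 55.8%, and over all tested genes 20.6% were called, 13.5% higher and 7.1% lower. Members had a median log2 fold change of 0.14, against 0.03 for all tested genes, and 37 members had a positive value, against 58.2% of all genes. The changes were small. Sizes of the log2 fold changes of called members ran from 0.10 to 0.26, rises were 7.57% to 20.4% in FPKM, and 0 called members reached 1.2-fold on the log2(FPKM + 1) scale. The study's own criteria are an unadjusted p under 0.01 together with 1.2-fold. By them 0 of the 43 were called on that scale, against 2.89% of all genes. The added 1 decides this 0, since on log2(FPKM + 0.01), a setting added after the data were seen, *EIF4E2* and *EIF4G3* were called, against 4.34% of all genes. In 29 members all 6 knockdown libraries lay above all 3 of scramble (16.4% of all genes) and in 2 all lay below (9.46%).

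**Figure D2:**
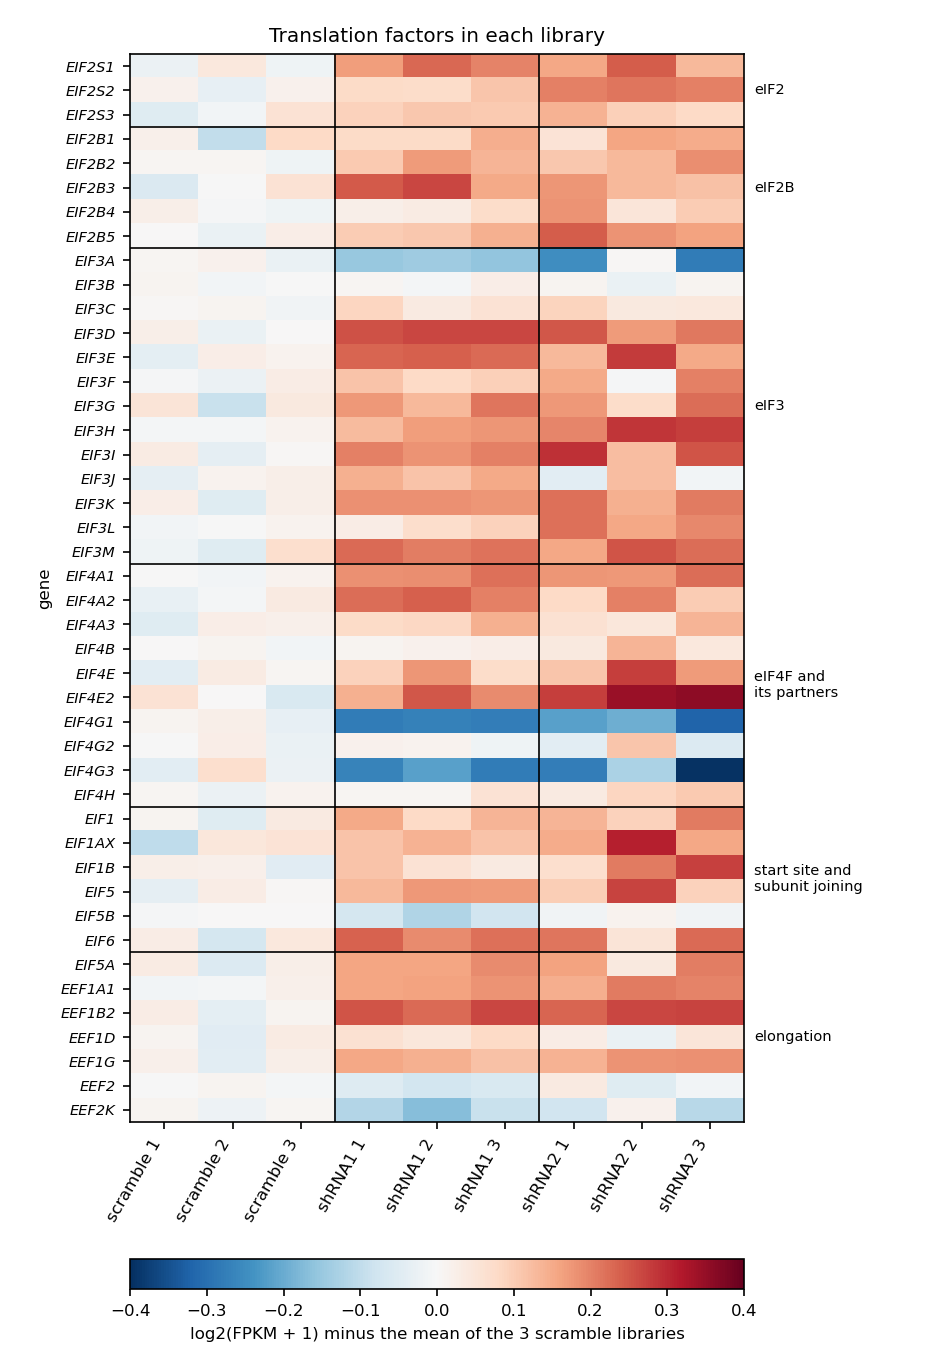
Heat map of log2(FPKM + 1) minus the scramble mean for the 44 members (rows, by group) in the 9 libraries (columns), with red for higher and blue for lower. Most rows are red in the 6 knockdown columns, *EIF4G1*, *EIF4G3* and *EIF3A* are blue, and in shRNA2 replicate 2 *EIF3A* returns to the scramble level.

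Abundance and transcript length both went with the fold change over all genes, and the part of abundance in the members' counts was not tested. Among the 385 tested genes with a mean of 200 FPKM or more, 45.7% rose, and 8 of the 11 members at that level rose. From 50 to 200 FPKM 28.6% of genes rose, and so did 8 of 17 members. Longer transcripts had lower fold changes, with a Spearman's rho of −0.45 over 12092 genes and of −0.41 over the 43 members. Genes are not independent replicates, and these values are a description. The lengths are those of GENCODE transcripts paired with the entries and can be longer than the RefSeq entry counted. This concerns *EIF3M*, *EEF1A1* and *EIF4E*, whose length class and values with the length trend removed are less certain. Below 2000 bases 12 of 17 members rose and 0 fell, against 23% and 1.05% of genes of that length. At 4000 bases or more 5 of 11 members rose and 2 fell, against 3.61% and 18.7%, and these 5 were *EIF2S1*, *EIF2B2*, *EIF3M*, *EIF5* and *EEF1A1*. With the length trend of each library removed, 12 members were called higher and 2 lower and the median log2 fold change of the members was 0.07, while 12.3% of all genes were called (6.62% higher). Those 12 were *EIF2S1*, *EIF2B2*, *EIF3D*, *EIF3H*, *EIF3I*, *EIF3M*, *EIF4A1*, *EIF4E*, *EIF1AX*, *EIF5*, *EEF1A1* and *EEF1B2*. With quantile normalization 11 were higher and 3 lower, and 16.8% of all genes were called (8.37% higher).

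**Figure D3:**
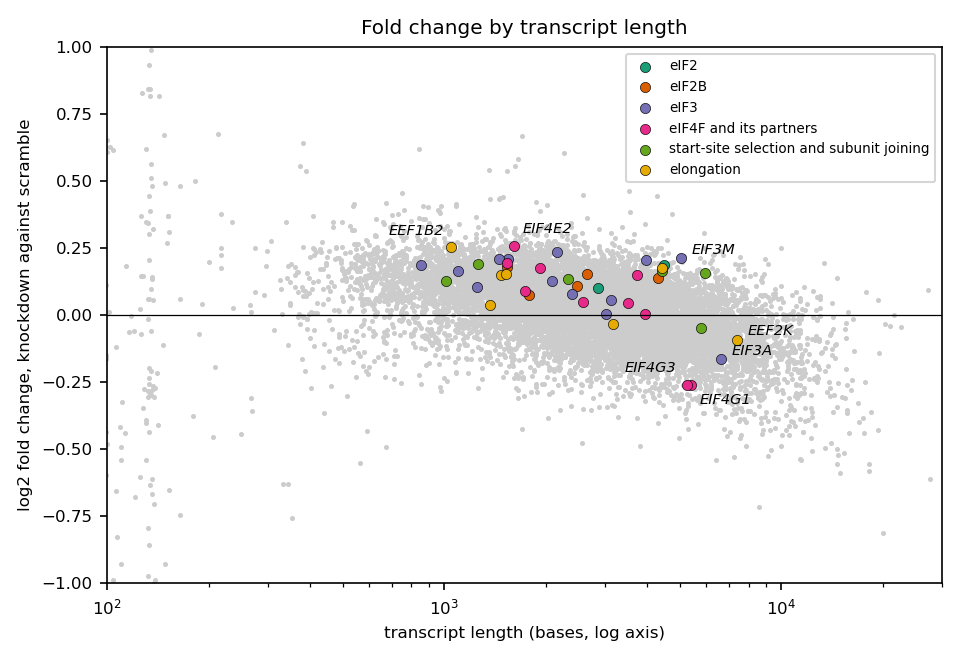
Log2 fold change of knockdown against scramble against transcript length (log axis) for 12092 tested genes in grey, 345 of which lie outside the axes, and for the 43 tested members in colour by group. The grey cloud slopes down (rho −0.45), short members such as *EEF1B2* lie above 0, and *EIF4G1*, *EIF4G3*, *EIF3A* and *EEF2K* are long and lie below 0.

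In eIF2, the GTPase that brings the initiator tRNA, both tested subunits rose. *EIF2S1*, which encodes the alpha subunit that stress kinases phosphorylate, was at 51.6, 54.0 and 51.8 FPKM in scramble, at 59.0, 61.7 and 60.3 with shRNA1 and at 58.5, 62.3 and 57.5 with shRNA2. The groups did not overlap, and the log2 difference was 0.19 ± 0.0329 (SE, adjusted p = 0.00746, limma). It lies on chromosome 14 from 67360328 to 67386516. *EIF2S3*, the gamma subunit that holds the GTP, rose by 0.10 (adjusted p = 0.0357, limma), with means of 34.4 ± 1.32 FPKM in scramble (SD, n = 3) and 37.0 ± 0.539 FPKM with knockdown (SD, n = 6). That call was lost in 6 of the 9 fits that left out a library, with adjusted p up to 0.14. The untested beta subunit gene *EIF2S2* was at 57.9, 55.9 and 57.9 FPKM in scramble, at 60.5, 60.2 and 61.9 with shRNA1 and at 66.0, 66.6 and 65.9 with shRNA2, so the 3 groups did not overlap. When genes were tested whatever the status of their entries, its log2 fold change was 0.15 (adjusted p = 0.0386 by limma).

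Of the 5 subunits of eIF2B, the exchange factor that recharges eIF2, 3 rose and 2 did not pass the test. The gamma subunit gene *EIF2B3* was at 5.11, 5.35 and 5.61 FPKM in scramble and between 5.89 and 6.65 FPKM in all knockdown libraries, with a log2 fold change of 0.18 (adjusted p = 0.0214 by limma). The catalytic epsilon subunit gene *EIF2B5* was at 17.9, 17.5 and 18.2 FPKM in scramble, at 19.2, 19.3 and 19.8 with shRNA1 and at 21.3, 20.4 and 20.1 with shRNA2. It rose by 0.16 (adjusted p = 0.0174, limma). *EIF2B2* rose by 0.14. *EIF2B1* and *EIF2B4* had values of 0.11 and 0.08 that did not pass.

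The eIF3 scaffold has 13 subunits here, of which 7 rose, 0 fell and 6 did not pass. The summed FPKM of the 13 was 1533.7 ± 18.2 in scramble, 1684.5 ± 10.6 with shRNA1 and 1683 ± 13.7 with shRNA2. The subunits that rose were *EIF3D*, *EIF3E*, *EIF3G*, *EIF3H*, *EIF3I*, *EIF3K* and *EIF3M*, by 0.16 to 0.24. *EIF3D*, a subunit that can bind the cap of some mRNAs itself, lies on chromosome 22 from 36510855 to 36529166. It was at 150, 145 and 148 FPKM in scramble, at 176, 178 and 177 with shRNA1 and at 175, 166 and 171 with shRNA2. The log2 difference was 0.24 ± 0.0294 (SE, adjusted p = 0.00266, limma), the largest in eIF3. *EIF3M* was at 24.7, 24.1 and 26.2 FPKM in scramble and at 27.9 to 29.9 FPKM in all knockdown libraries, with a log2 fold change of 0.21 (adjusted p = 0.00472).

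*EIF3A*, the largest subunit and a core of the complex, lay below all scramble libraries in 5 of the 6 knockdown libraries. It was at 80.2, 80.8 and 78.4 FPKM in scramble, at 71.8, 72.2 and 71.4 with shRNA1 and at 67.0, 80.1 and 65.6 with shRNA2. The library at 80.1 FPKM is shRNA2 replicate 2. With all libraries the log2 fold change was −0.16 (95% interval −0.27 to −0.05, adjusted p = 0.0774 by limma), which did not pass. Without shRNA2 replicate 2 it was −0.20 (adjusted p = 0.0115 by limma). *EIF3B* had a log2 fold change of 0.00 and *EIF3C* one of 0.06. *EIF3C* and its near-identical copy *EIF3CL*, both on chromosome 16, were listed at 181 and 173 FPKM in scramble, and reads of the pair cannot be told apart with certainty.

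In the group of eIF4F and its partners the members that passed differed in direction. The scaffold genes *EIF4G1* and *EIF4G3* fell and *EIF4A1*, *EIF4A2* and *EIF4E2* rose, and the other 5 members of the group did not pass. *EIF4G1*, on chromosome 3 from 184314606 to 184335358, was at 216, 218 and 209 FPKM in scramble, at 176, 177 and 177 with shRNA1 and at 184, 187 and 171 with shRNA2. No knockdown library reached the lowest of scramble. The log2 difference was −0.26 ± 0.0329 (SE, adjusted p = 0.00266, limma), and it was −0.21 with the length trend removed (adjusted p = 0.00328). *EIF4G3*, a paralog on chromosome 1 from 20806292 to 21176897, was at 9.65, 10.5 and 9.78 FPKM in scramble, at 8.12, 8.43 and 8.04 with shRNA1 and at 8.05, 9.05 and 7.34 with shRNA2. It fell by 18.1% in FPKM, with a log2 difference of −0.26 (adjusted p = 0.0133, limma), and without scramble replicate 2 the adjusted p was 0.0648. *EIF4G2*, a paralog that lacks the site for eIF4E, had a log2 fold change of 0.00.

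*EIF4A1*, the helicase that unwinds the leader of the mRNA, lies on chromosome 17 from 7572825 to 7579006. It was at 438, 435 and 442 FPKM in scramble, at 498, 499 and 510 with shRNA1 and at 495, 494 and 512 with shRNA2. The log2 difference was 0.19 ± 0.0229 (SE, adjusted p = 0.00239, limma). With quantile normalization the value was 0.09 and did not pass (adjusted p = 0.0579). The ratio of *EIF4A1* to *EIF4G1*, chosen after the values were seen and given with no test, was 1.99 to 2.11 in scramble, 2.81 to 2.89 with shRNA1 and 2.64 to 2.99 with shRNA2.

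The cap-binding gene *EIF4E* was at 4.31, 4.59 and 4.49 FPKM in scramble, at 4.82, 5.17 and 4.75 with shRNA1 and at 4.90, 5.62 and 5.14 with shRNA2. All knockdown libraries lay above all of scramble, and the log2 fold change of 0.15 missed the threshold (adjusted p = 0.0517 by limma). It passed in 8 of the other fits, among them the one with the length trend removed (0.15, adjusted p = 0.0466) and the one without shRNA2 replicate 2 (0.12, adjusted p = 0.0321). Of its entries 2 have paired lengths of 1097 and 11523 bases, so its length and level are less certain. *EIF4E2*, which encodes a related cap-binding protein that represses translation, was at 39.1, 37.5 and 35.9 FPKM in scramble, at 41.5, 44.7 and 42.9 with shRNA1 and at 45.6, 47.8 and 48.3 with shRNA2. Its rise was the largest of the members before any length correction, with a log2 difference of 0.26 ± 0.0533 (SE, adjusted p = 0.0123, limma). The call was lost without scramble replicate 2 (adjusted p = 0.0528) or replicate 3, and with the length trend removed (0.18, adjusted p = 0.0722). In that last fit *EIF3M* had the largest value (0.25), a rank that depends on its paired length of 5051 bases.

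**Figure D4:**
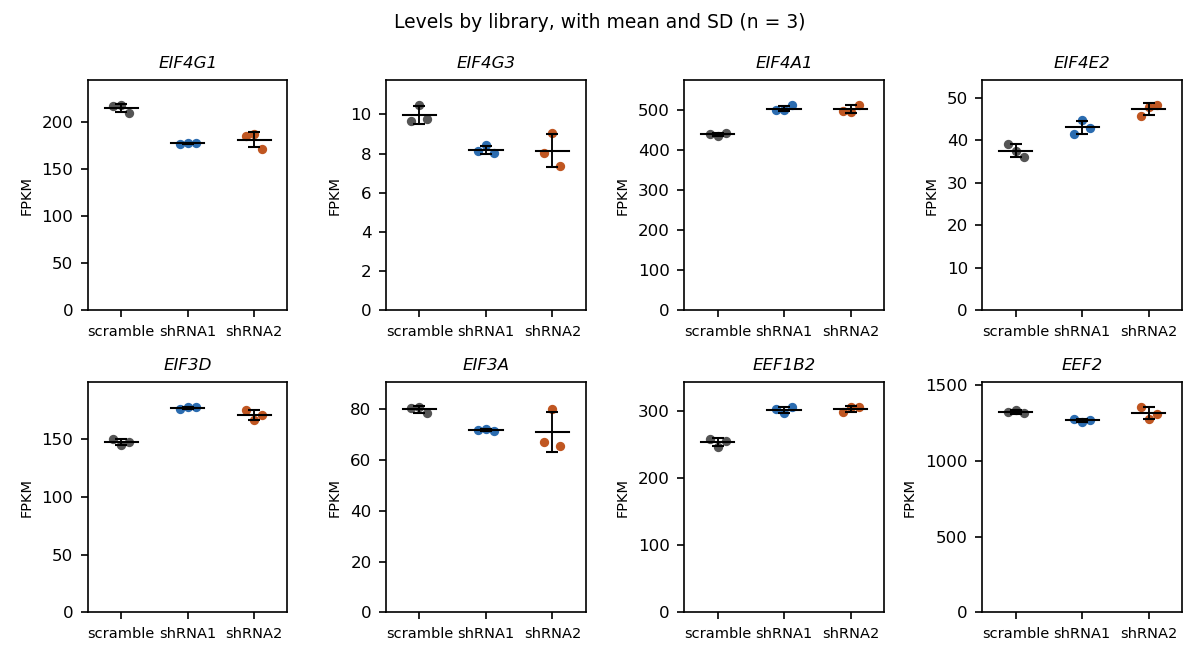
FPKM of 8 members in each library (points) with the mean (line) and SD (bars, n = 3) of scramble, shRNA1 and shRNA2, on axes that start at 0. *EIF4G1* and *EIF4G3* are lower and *EIF4A1*, *EIF4E2*, *EIF3D* and *EEF1B2* higher in all 6 knockdown libraries than in scramble, *EIF3A* overlaps scramble through 1 library, and *EEF2* overlaps.

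Of the 6 factors of start-site selection and subunit joining, *EIF1*, *EIF5* and *EIF6* rose. *EIF6*, which keeps the large subunit from joining early, was at 269, 251 and 271 FPKM in scramble, at 311, 300.4 and 307 with shRNA1 and at 306, 273 and 308 with shRNA2. The log2 fold change was 0.19 (adjusted p = 0.0234 by limma). With the length trend removed it was 0.09 and did not pass (adjusted p = 0.132). *EIF1AX*, a partner of eIF1 in scanning, was at 18.1, 20.1 and 20.2 FPKM in scramble, at 21.1, 21.5 and 21.1 with shRNA1 and at 21.7, 24.4 and 21.7 with shRNA2. Its log2 fold change of 0.16 did not pass (adjusted p = 0.0593). *EIF1* and *EIF5*, which guard and complete the choice of the start codon, rose by 0.13 and 0.16. *EIF5B*, the GTPase of subunit joining, had a value of −0.05 and *EIF1B* one of 0.13, neither past the test.

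Of the 7 elongation genes *EIF5A*, *EEF1A1*, *EEF1B2* and *EEF1G* rose. The median log2 fold change of the 7 was 0.15 with knockdown. With quantile normalization this median was 0.01 with knockdown, 0.0005 with shRNA1 and −0.0157 with shRNA2. *EEF1A1*, on chromosome 6 from 73515750 to 73521032, was at 1234, 1236 and 1260 FPKM in scramble, at 1386, 1389 and 1408 with shRNA1 and at 1375, 1435 and 1428 with shRNA2. The log2 difference was 0.18 ± 0.0240 (SE, adjusted p = 0.00315, limma), and with quantile normalization it was 0.04 and did not pass. *EEF1B2*, which recharges eEF1A with GTP, was at 259, 247 and 256 FPKM in scramble, at 302, 297 and 306 with shRNA1 and at 298, 305 and 306 with shRNA2. The log2 difference was 0.25 ± 0.0249 (SE, adjusted p = 0.00120, limma), and 0.14 with the length trend removed (adjusted p = 0.0145). *EEF1G* rose by 0.15 and *EIF5A*, the hypusine-bearing factor that frees stalled ribosomes, by 0.15. The call of *EIF5A* was kept in 1 of the 9 fits that left out a library, the one without shRNA2 replicate 2.

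The translocase gene *EEF2* was at 1318, 1332 and 1313 FPKM in scramble, at 1276, 1255 and 1267 with shRNA1 and at 1355, 1277 and 1311 with shRNA2, on chromosome 19 from 3976056 to 3985463. The libraries of shRNA1 lay below all of scramble and those of shRNA2 overlapped them, and the log2 fold change with knockdown was −0.03 (95% interval −0.09 to 0.02, adjusted p = 0.432 by limma). With quantile normalization the value of *EEF2* was −0.15 and it was called lower (adjusted p = 0.0124 by limma). *EEF2K*, the kinase that inhibits eEF2, was at 3.95, 3.86 and 3.95 FPKM in scramble, at 3.53, 3.38 and 3.62 with shRNA1 and at 3.67, 3.98 and 3.56 with shRNA2. Its log2 fold change was −0.09 (adjusted p = 0.131), and without shRNA2 replicate 2 it was −0.11 and passed. *EEF1D*, at 280 ± 7.71 FPKM in scramble, had a value of 0.04, and 10 of its 20 entries lie on an alternate contig, where its level is counted a further time.

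By the start of their mRNA, the 10 members with a pyrimidine tract had a median log2 fold change of 0.17, with 7 that rose, 0 that fell and 3 (*EIF3F*, *EIF4B* and *EEF2*) that did not pass. The 27 members with a start but no tract had a median of 0.13, with 12 that rose, 2 that fell and 13 that did not pass. Over all tested genes 13.5% rose and 7.1% fell. Calls among all genes with a tract were not counted, and the part of the tract was not tested. The median level in scramble was 133 FPKM in the first set and 52.5 FPKM in the second, and its part in the counts was not tested. *EEF1A1* and *EEF2*, printed above with tracts of the same length, had log2 fold changes of 0.18 and −0.03.

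The hairpins were also set against scramble separately, in a fit of 3 groups. The comparisons share the scramble libraries. With shRNA1 18 of 43 members rose and 3 fell, where 11.7% of all genes rose and 7.19% fell (18.8% called). With shRNA2 21 rose and 2 fell, where 15.3% rose and 11.4% fell (26.7% called). With quantile normalization the counts were 7 higher and 4 lower for shRNA1 and 14 higher and 4 lower for shRNA2, against 15% (6.61% higher) and 25% (12.4% higher) of all genes called. With the length trend removed shRNA1 had 9 higher and 2 lower, against 12.3% of all genes called (6.14% higher). The count for shRNA1 also changed when a library was left out, and it fell with any of the shRNA1 or scramble libraries left out. It was 9 without shRNA1 replicate 2, 11 without shRNA1 replicate 3 or scramble replicate 2, and 13 without shRNA1 replicate 1 or scramble replicate 1, and in these fits the share of all genes called was also lower, at 7.33% to 9.27%. It was 28 without shRNA2 replicate 2, where 28.3% of all genes were called. The medians over the members were 0.12 and 0.14. *EIF4G1* had log2 fold changes of −0.28 with shRNA1 (adjusted p = 0.00545 by limma) and −0.24 with shRNA2 (adjusted p = 0.00396). *EIF4E2* had values of 0.19 (adjusted p = 0.0219) and 0.33 (adjusted p = 0.00240), and the difference between the hairpins did not pass (adjusted p = 0.112). *EIF5B* fell with shRNA1 (−0.09, adjusted p = 0.0395, limma), and with the length trend removed its value of −0.03 did not pass (adjusted p = 0.559). It was at 29.98 ± 0.0711 FPKM in scramble, 28.1 ± 0.552 with shRNA1 and 29.9 ± 0.351 with shRNA2 (SD, n = 3). By the study's criteria *EIF3D* and *EIF4G1* were called with shRNA1 and *EIF4E2* with shRNA2, against 3.6% and 4.72% of all genes. On log2(FPKM + 0.01) *EIF4G3* was called with shRNA1 as well, against 4.84% of all genes.

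Directly compared, shRNA2 and shRNA1 differed in 1 member, against 6.71% of all genes called, 1.92% higher and 4.79% lower. This was *EIF3L*, an eIF3 subunit, at 111, 112 and 113 FPKM in scramble, at 114, 117 and 119 with shRNA1 and at 130, 125 and 128 with shRNA2. Its level was higher with shRNA2 by a log2 difference of 0.13 ± 0.0278 (SE, adjusted p = 0.0384, limma), and all 3 libraries of shRNA2 lay above all of shRNA1. The count was 4 without shRNA2 replicate 2, with *EIF3A*, *EIF3J* and *EIF4A2* lower with shRNA2, where 9.37% of all genes were called, and 0 in each of the other 8 fits that left out a library. With quantile normalization 2 members were called between the hairpins, against 6.99% of all genes (2.42% higher), and by the study's criteria 0 of 43, against 2.14%. At an unadjusted p under 0.05 by limma there were 7 of 43. The share of all genes at that threshold is not given, so this count is not a result about the members. *FZD6* itself had a log2 difference of −0.25, shRNA2 minus shRNA1 (adjusted p = 0.0273).

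**Figure D5:**
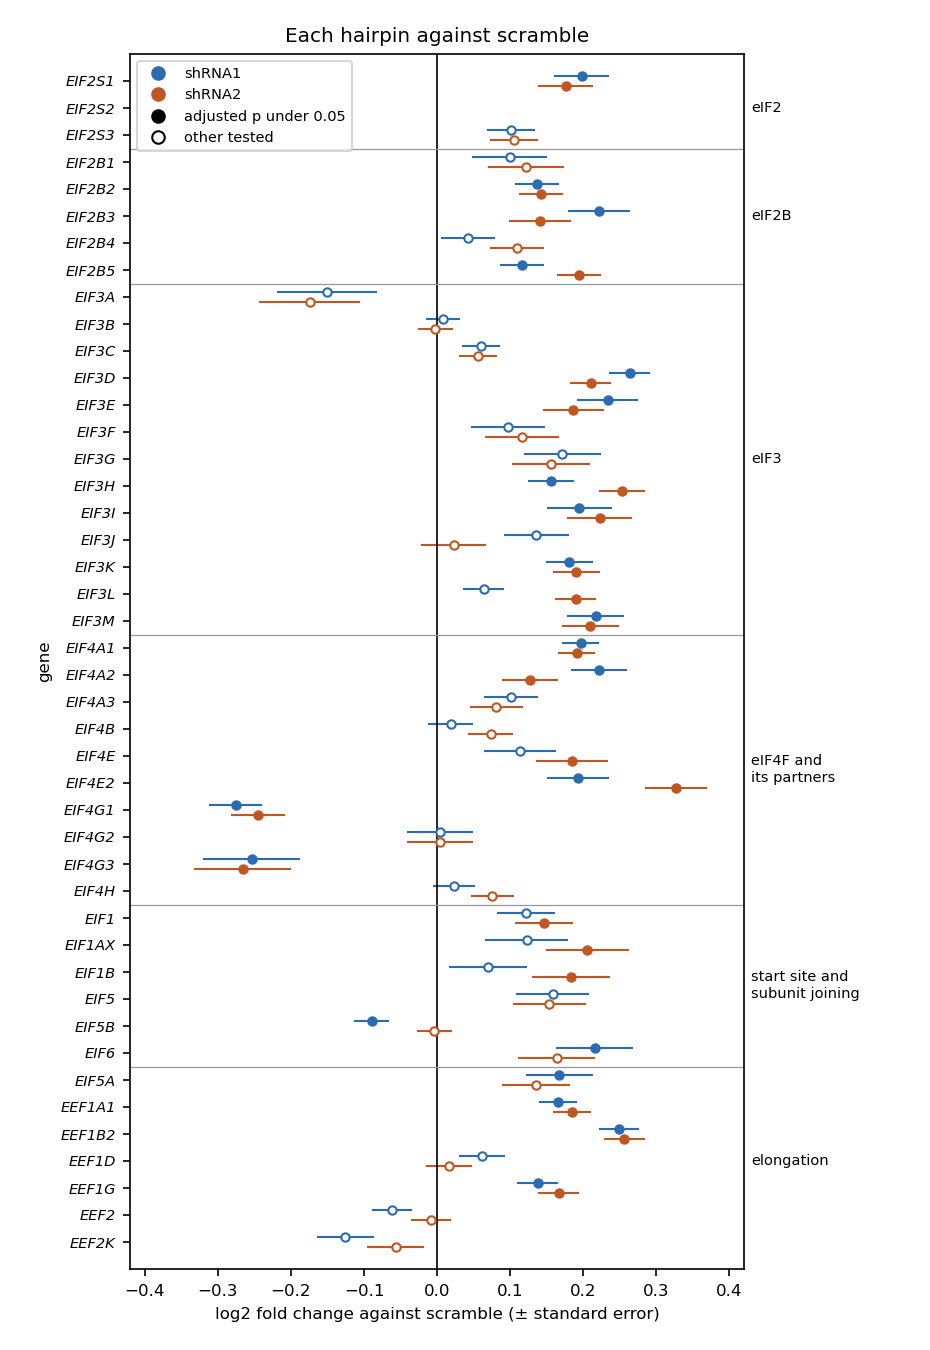
Log2 fold change against scramble (points) with its standard error (bars) for each tested member, with shRNA1 in blue and shRNA2 in orange and filled points at an adjusted p under 0.05. *EIF4G1* and *EIF4G3* are negative with each hairpin, most other points lie between 0 and 0.33, and the largest single value is *EIF4E2* with shRNA2.

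The other genes of translation were taken from 4 lists of 50 genes in all, of which 46 were tested. Of these 11 rose with knockdown and 0 fell, which is 23.9% called and near the 20.6% of all genes, and their median was 0.07. Among 16 tested regulators of initiation only *PPP1R15A* rose with all libraries in the fit. It encodes the stress-induced subunit that directs a phosphatase to eIF2 alpha, and was at 31.2, 29.2 and 30.1 FPKM in scramble, at 41.4, 41.1 and 41.0 with shRNA1 and at 35.1, 36.5 and 36.8 with shRNA2. The log2 difference was 0.34 ± 0.0606 (SE, adjusted p = 0.00747, limma), larger than that of any member, and between the hairpins its log2 difference, shRNA2 minus shRNA1, was −0.18 (adjusted p = 0.0172). The eIF2 kinase genes *EIF2AK1*, *EIF2AK2*, *EIF2AK3* and *EIF2AK4* had log2 fold changes from −0.02 to 0.02. *EIF4EBP1*, which encodes the mTORC1 target 4E-BP1, was at 191 ± 4.35 FPKM in scramble and 214 ± 12.6 with knockdown, a log2 fold change of 0.16 that did not pass (adjusted p = 0.0556). Without shRNA2 replicate 2, where it was at 191 FPKM, its value was 0.19 and it was called higher (adjusted p = 0.00485 by limma).

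Of 9 genes of termination, recycling and rescue, *PELO* and *EIF2D* rose, by 0.18 and 0.12. Both calls were lost without scramble replicate 1 or 2, and that of *EIF2D* also with the length trend removed or with quantile normalization. *ABCE1*, which splits ribosomes after termination, was at 69.4, 74.4 and 74.8 FPKM in scramble, at 83.5 in each library of shRNA1 and at 61.6, 67.9 and 61.4 with shRNA2. It was chosen after its values were seen. Its log2 fold change was 0.19 with shRNA1 (adjusted p = 0.0282 by limma) and −0.19 with shRNA2 (adjusted p = 0.0210), and the hairpins differed by −0.39 (adjusted p = 0.00406). The 2 hairpins together gave 0.00. Of 13 tested paralogs and other cytosolic factors, 5 rose. *EIF2A*, an alternative carrier of initiator tRNA, rose by 0.21 (adjusted p = 0.00345 by limma) and *EEF1E1*, a scaffold protein of the tRNA synthetase complex, by 0.30. *DPH5* and *DPH2*, which help make the diphthamide of eEF2, rose by 0.31 and 0.19, and the fifth was *EIF1AD*. With the length trend removed, or without scramble replicate 1, *DPH5* and *EEF1E1* lost their calls. Without scramble replicate 2 *DPH5* and *DPH2* lost theirs. *EEF1A2*, the tissue-restricted paralog of *EEF1A1*, was at 655 FPKM in scramble with a log2 fold change of 0.00. Of 8 tested mitochondrial factors the ribosome recycling factor gene *MRRF* rose by 0.23, the elongation factor gene *TUFM* by 0.12 and its exchange factor gene *TSFM* by 0.14. These 3 mitochondrial calls were not stable either. With the length trend removed, or without scramble replicate 2, 0 of the 8 were called, and *TSFM* lost its call in 8 of the 9 fits that left out a library.

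Part of these counts changed when single libraries were left out. Left out in turn, they gave 13 to 30 called members in knockdown against scramble, with 13 (12 higher, 1 lower) without scramble replicate 2, 15 without scramble replicate 1 and 30 (26 higher, 4 lower) without shRNA2 replicate 2. The share of all genes called moved the same way, to 7.97%, 9.44% and 26%. The 6 members that gained a call without shRNA2 replicate 2 were *EIF3A* and *EEF2K*, lower, and *EIF3F*, *EIF4A3*, *EIF4E* and *EIF1AX*, higher. *EIF2B3*, *EIF2B5*, *EIF4A2* and *EIF6* lost their call without scramble replicate 1 or 2, and *EIF1*, *EIF5* and *EIF3G* kept theirs in 5, 4 and 2 of the 9 fits. Of the 24 called members, 13 were called in all 9 of these fits, *EIF2S1*, *EIF2B2*, *EIF3D*, *EIF3E*, *EIF3H*, *EIF3I*, *EIF3K*, *EIF3M*, *EIF4A1*, *EIF4G1*, *EEF1A1*, *EEF1B2* and *EEF1G*, and all 24 kept their sign.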

How the data were processed

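RNA-seq of 9 DU145 libraries was analyzed, 3 for each of scramble, *FZD6* shRNA1 and *FZD6* shRNA2. Per the labels and the methods, the authors made stranded mRNA libraries and used STAR for mapping and Cufflinks for the FPKM, which the deposited tables hold for each RefSeq entry with confidence bounds. Tool versions are not given in the sources used here. The loci are those of hg38, whereas the methods name mm10. Count tests were not run, since read numbers are not in the tables used here.

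Of 73240 accessions, 72645 matched a gene in RefSeq (GRCh38.p14), and the 595 others held 0.387% to 0.431% of the FPKM. FPKM were summed per gene over all entries, and 42 genes with an entry not marked as usable were left out. Genes whose mean reached 1 FPKM were tested on log2(FPKM + 1) with limma 3.58.1 in R 4.3.3, knockdown (6 libraries) against scramble (3) in a fit of 2 groups and the other comparisons in a fit of 3 groups. Fold changes on this scale understate those of low genes. The fits were tested on simulated data. Confidence intervals are 95%. Promoter windows came from RefSeq and transcript lengths from GENCODE 29. One of the marker lists is not reported here. Figures were made with matplotlib 3.10.9.

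The members and lists were chosen with earlier results of these data known. Named are *EIF2S1*, *EIF3A*, *EIF4E*, *EIF4G1*, *EIF4A1*, *EEF1A1*, *EEF2* and *EEF2K*, the 2 members of each group with the largest fold change, members that differ between hairpins, and called genes of the other lists, at most 4 a list. Other members are named as one of a small count or after their values were seen. Alternatives were pseudocounts of 0.1 and 0.01, other filters, scalings, fits and entries, removal of length trends by lowess (span 0.3), the replicate block and leaving out each library.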

Additional observations from a re-analysis of the deposited data

Results flagged for a closer look

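Among the 6 knockdown libraries of each of the 44 members, 4 genes had a library far from the rest (by Dixon's test of the gap over the range), and chance flags about 2.2 of 44. All 4 lie in shRNA2 replicate 2. *EIF4B* was highest there at 129.8 FPKM, with the others at 119.1 to 121.7, and *EIF1AX* was highest at 24.4 FPKM, with the others at 21.1 to 21.7. *EIF6* was lowest at 273 FPKM, with the others at 300.4 to 311, and *EIF5A* was lowest at 765 FPKM, with the others at 829 to 858. Without this library *EIF6* and *EIF5A* had log2 fold changes of 0.22 (adjusted p = 0.00370 by limma) and 0.17 (adjusted p = 0.00541) against scramble, *EIF1AX* passed the test, and *EIF4B* had a value of 0.03 that did not.

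Among the members and the 46 tested genes of the other lists, 3 genes differed between shRNA2 and shRNA1 in the direct comparison (limma, adjusted p under 0.05), in which 6.71% of all genes were called. The log2 difference, shRNA2 minus shRNA1, was 0.13 for *EIF3L*, −0.18 for *PPP1R15A* and −0.39 for *ABCE1*.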

How the results depend on the processing

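The alternatives mostly kept the direction of the members' change and moved its size. With quantile normalization 14 members were called in knockdown against scramble, 11 with shRNA1 and 2 between the hairpins, and the medians fell to 0.0848, 0.0703 with shRNA1 and 0.0882 with shRNA2. With the length trend removed the counts were 14 in knockdown and 11 with shRNA1, and the medians were 0.0692 in knockdown, 0.0715 with shRNA1 and 0.0705 with shRNA2. By the study's criteria 0 were called in knockdown, 2 with shRNA1, 1 with shRNA2 and 0 between the hairpins. On log2(FPKM + 0.01), added after the data were seen, those criteria called 2 in knockdown, 3 with shRNA1, 1 with shRNA2 and 0 between the hairpins. Tested over only the libraries compared, shRNA2 had 15 called members (16.9% of all genes called) and shRNA1 28 (27.3%). The single call between the hairpins, *EIF3L*, is not stable, since there were 0 with median centring, with protein-coding accessions only or over only the libraries compared, and 2 without a filter or with genes of any status. The log2 fold change of *EEF2K* turned to 0.0022 with the length trend removed. That of *ABCE1* in knockdown, 0.00, was −0.0044 with median centring and −0.0502 with quantile normalization. The causes were not tested. *FZD6* stayed lower under all 25 alternatives.

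Leaving out each library in turn gave 13 to 30 called members in knockdown against scramble (median 0.13 to 0.15), 9 to 28 with shRNA1 (0.12 to 0.14), 16 to 27 with shRNA2 (0.12 to 0.16) and 0 to 4 between the hairpins (0.0074 to 0.0198), and the log2 fold change of *ABCE1* was −0.0380 to 0.0494 in knockdown.

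The deviations of same-numbered libraries had correlations of −0.07 to 0.11, and those of differently numbered libraries −0.12 to 0.18. A pairing by replicate number was thus not seen, though groups of 3 libraries cannot exclude one. With the replicate block 24 members were called in knockdown, 22 with shRNA1, 25 with shRNA2 and 0 between the hairpins. The share of all genes called with this block is not given, here or below, so these counts cannot be set against it. With the replicate block and the length trend removed the counts were 12 in knockdown and 9 with shRNA1, the medians were again 0.0692, 0.0715 and 0.0705, and the log2 fold change of *EEF2K* was 0.0022.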
